A study of Mus musculus with 14 samples.

Results

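Otx2, Pou3f1, Fgf5, Zic2 and Zic5 are 5 genes that mark the formative state of mouse pluripotent cells, and the ChIP-seq peaks around them were examined in embryonic stem (ES) cells that express a tagged SIM2. They are 5 of the 22367 protein-coding genes of the mm9 annotation. A peak was taken as near one of them when it lay within 100 kb of the gene body, and 23 of the 24416 peaks in 8 peak lists did so. The study asked where SIM2, a transcription factor encoded on human chromosome 21, binds in the genome of these cells and which factors bind with it.

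SIM2-FLAG was mapped with an anti-FLAG antibody in 3 Sim2-expressing clones, A6, B8 and C4, each with 1 library and its own input. The clones carry a FLAG-tagged mouse Sim2 at the ROSA locus under a tetracycline-repressed hCMV*-1 promoter, and the transgene was induced by 26 h of culture in tetracycline-free medium. The same FLAG ChIP in the parental EB3 line, which has no Sim2-FLAG transgene, served as the control. For NANOG, OCT4, MED1 and MED12, only the lists of clone A6 were used, each from 1 library. These 4 lists thus have no replicate and describe SIM2-expressing cells of 1 clone. The paper describes ChIP of these factors in EB3 cells as well, and those maps were not analysed here. All cells were grown on gelatin in serum with leukemia inhibitory factor, which are not conditions that induce the formative state. The peak lists used here hold no expression values, and mRNA-seq of these cells was not analysed here, so the state of the cells was not checked against its marker RNAs.

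Naive ES cells resemble the inner cell mass of the blastocyst, and before they can form the germ layers they pass through a formative state, the counterpart of the early post-implantation epiblast. Otx2 encodes a homeobox factor that redirects OCT4 to new enhancers in this transition and later patterns the forebrain. Pou3f1 (also called Oct6) encodes a POU factor, Fgf5 a secreted growth factor of the epiblast, and Zic2 and Zic5 encode zinc finger factors that are also needed in the neural tube. NANOG and OCT4 are core pluripotency factors, MED1 and MED12 are subunits of Mediator, the complex that links enhancers to RNA polymerase II, and SIM2 is a bHLH-PAS factor that pairs with ARNT.

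In mm9, Otx2 (ENSMUSG00000021848.9) lies at chr14:49277354-49287319 on the reverse strand. Zic5 (ENSMUSG00000041703.7, chr14:122856017-122864899, reverse strand) and Zic2 (ENSMUSG00000061524.7, chr14:122874604-122879074, forward strand) are divergent neighbours whose start sites are 9.71 kb apart. Their windows share 190.0 kb, so each peak near one was also near the other, and both were treated as 1 locus. Fgf5 (ENSMUSG00000029337.1) lies at chr5:98683203-98706049 and Pou3f1 (ENSMUSG00000078236.3) at chr4:124334896-124337899, both on the forward strand.

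5 regions on which the results turn are shown first, read from the mm9 genome and written 5′ to 3′. No peak in them has its centre in a protein-coding exon. Capitals mark exact matches, on either strand, to the octamer ATGCAAAT that OCT4 recognises, the SOX core ACAAAG, which reads as CTTTGT from the other strand, the SIM-ARNT midline element TACGTG, the OTX core TAATCC or the KLF pattern GGGNGTGG. The shorter core ACGTG lies inside every TACGTG. The E-box CANNTG was also searched but is not capitalised, since 71.3% of the A6 peaks hold one. Another SOX core, CATTGT, the NANOG-like CCATTA and the ESRRB motif TCAAGGTCA were searched too. They had no match in the bases shown. The sequences are the SIM2 site near Zic2 and Zic5 (chr14:122833278-122833486, forward strand), the site shared by NANOG, OCT4 and MED12 near the same pair (chr14:122815583-122815799, forward strand), the SIM2 site near Otx2 (chr14:49274771-49274970, forward strand), the NANOG peak at the start site of the transcript Otx2-003 with the bases between them (chr14:49282548-49282845, reverse strand) and the NANOG peak in the first intron of Fgf5 (chr5:98684827-98684993, forward strand).
Zic SIM2 site: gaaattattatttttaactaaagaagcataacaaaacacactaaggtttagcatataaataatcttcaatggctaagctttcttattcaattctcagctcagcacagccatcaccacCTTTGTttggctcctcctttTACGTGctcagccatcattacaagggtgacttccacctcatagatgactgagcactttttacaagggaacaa
Zic MED12 site: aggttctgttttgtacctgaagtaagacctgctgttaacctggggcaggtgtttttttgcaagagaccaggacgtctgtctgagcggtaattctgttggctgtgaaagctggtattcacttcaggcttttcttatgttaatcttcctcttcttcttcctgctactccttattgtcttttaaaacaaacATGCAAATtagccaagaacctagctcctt
Otx2 SIM2 site: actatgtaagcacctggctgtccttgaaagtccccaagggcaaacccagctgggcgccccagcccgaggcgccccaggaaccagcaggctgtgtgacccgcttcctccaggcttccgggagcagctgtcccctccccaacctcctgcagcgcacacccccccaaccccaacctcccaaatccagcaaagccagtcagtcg
Otx2-003 start site: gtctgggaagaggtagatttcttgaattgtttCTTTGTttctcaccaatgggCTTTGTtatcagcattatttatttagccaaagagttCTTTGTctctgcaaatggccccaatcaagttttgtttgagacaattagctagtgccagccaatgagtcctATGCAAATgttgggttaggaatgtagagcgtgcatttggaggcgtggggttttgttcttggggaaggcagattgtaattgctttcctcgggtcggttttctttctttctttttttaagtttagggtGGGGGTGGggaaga
Fgf5 NANOG peak: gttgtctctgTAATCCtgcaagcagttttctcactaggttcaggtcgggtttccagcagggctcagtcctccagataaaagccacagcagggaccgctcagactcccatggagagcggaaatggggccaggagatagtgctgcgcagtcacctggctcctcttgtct

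Each list gives for a peak its tag count normalized to library size, its total tags and its fold over the input. The normalized tag counts rose in equal steps, from which the depths came to between 12.9 M tags (NANOG) and 31.5 M tags (OCT4), if the counts were scaled to 10 M (megatags). Sizes were compared only within a list. At these depths the 2 measures of size disagree. Turned back into tags, the normalized count had a median of 0.503 times the total tags in NANOG, 0.526 in B8 and 0.517 in MED12. At the peaks of these lists described here the ratio ran from 0.286 to 0.727. In A6 the difference went the other way, with 25 tags against total tags of 12.8 at Otx2 and 51 against 26.1 at the Zic pair. The OCT4 peaks came to 20 tags against 22.2, 14 against 20.4 and 13 against 14.6. The NANOG peak at the Otx2-003 start site has 54 total tags but 24 (15.4 to 35.7) from its normalized tag count. The reason for the difference is not given in the sources used here, so the tag numbers and intervals hold for the total tags as deposited. Total tags are whole numbers in the B8, C4, NANOG, MED1 and MED12 lists and are given there with their exact 95% Poisson interval, which covers counting error only. For A6 and OCT4, whose total tags are not whole, the normalized tag count is given without an interval. At all 23 peaks the input was at the lowest value of its list, so each fold over the input rests on that floor. Over the whole lists this was so for 93.9% of NANOG peaks, 92.3% of B8, 90.4% of OCT4, 87.1% of A6 and 81.3% of MED12 peaks.

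NANOG held 14 of the 23 peaks, OCT4 held 3, A6, B8 and MED12 held 2 each, and C4, EB3 and MED1 held none. By locus, 12 peaks lay near Otx2, 9 near the Zic pair, 1 near Fgf5 and 1 near Pou3f1. Peaks within 100 bp of each other fell into 15 places, of which 10 were held by 1 list and 5 by several. The Zic locus had 3 places, each held by several lists, whereas 8 of the 10 places at Otx2 were held by 1 list. Over the whole NANOG list, 16.2% of peaks had an OCT4 peak within 100 bp, 6.15% a MED12 peak and 6.81% a SIM2 site. A NANOG peak without these partners was therefore common in the genome and not particular to Otx2.

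**Figure D1:**
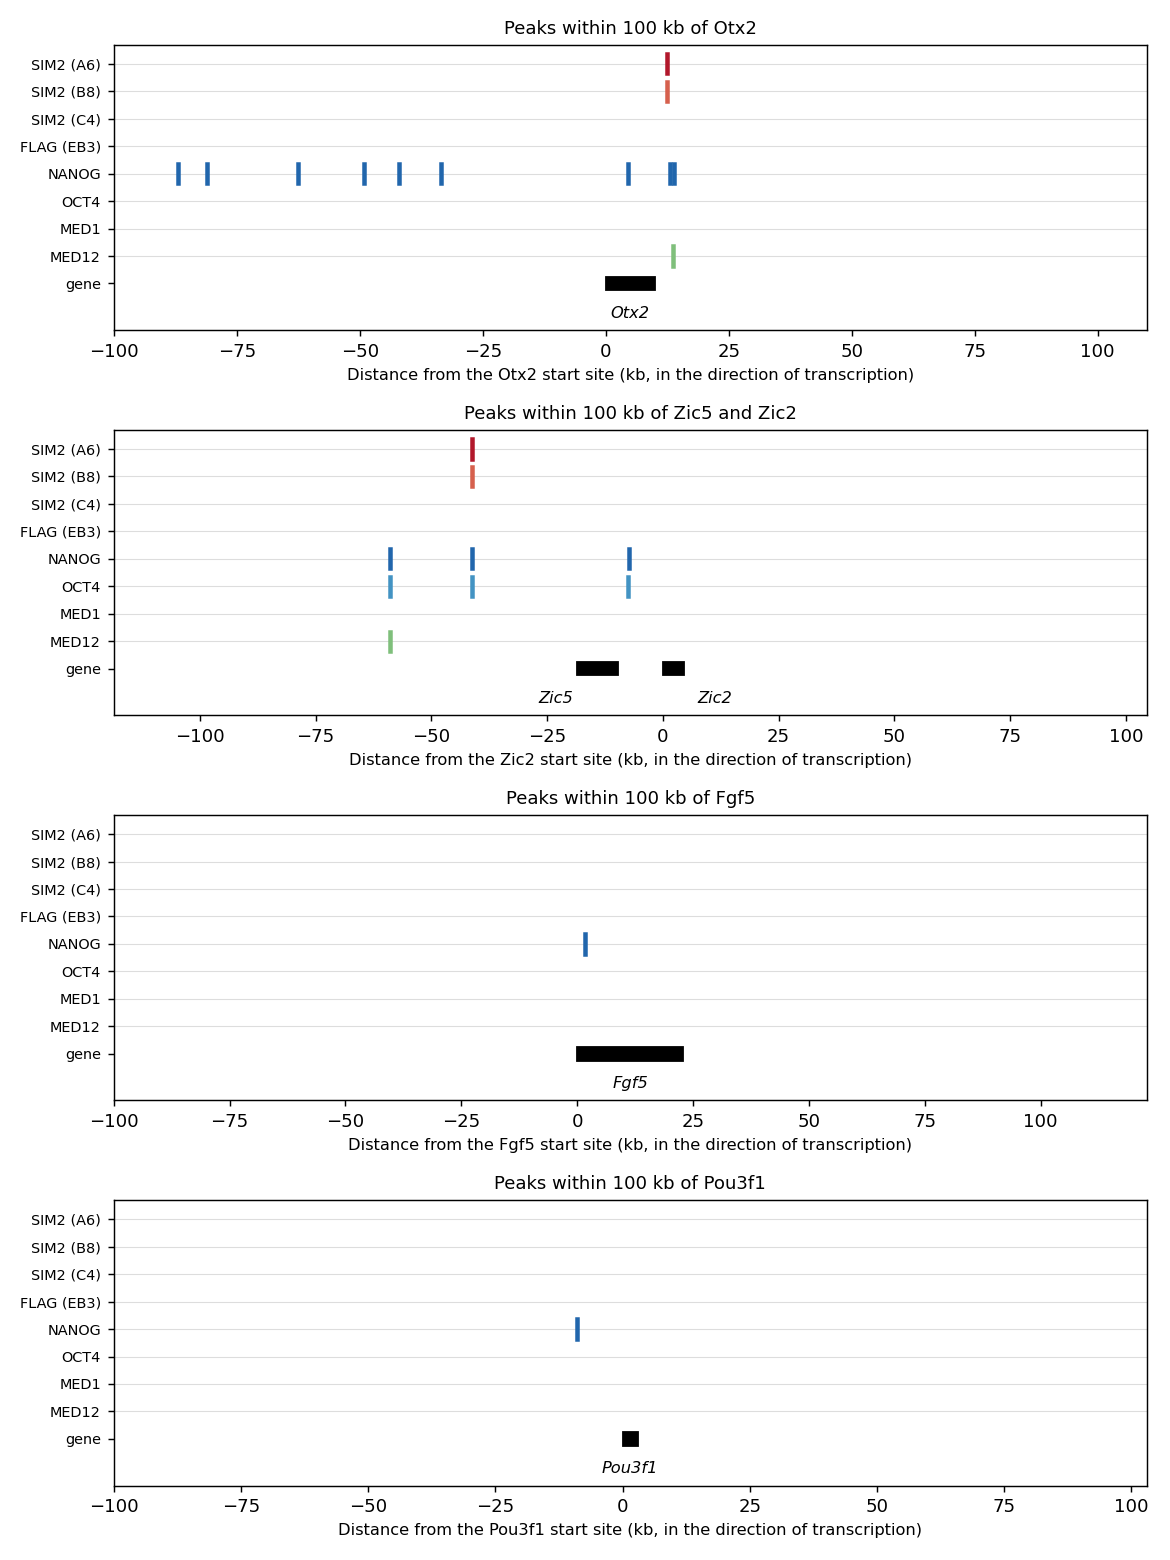
Maps of the peaks within 100 kb of Otx2, of Zic5 and Zic2, of Fgf5 and of Pou3f1, with the distance from the start site in kb on the horizontal axis and 1 row per peak list. Each coloured tick is 1 peak and black boxes are gene bodies; the 9 NANOG peaks of Otx2 have no OCT4 partner, and each of the 3 NANOG peaks of the Zic pair has one.

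SIM2 peaks were found near Otx2 and near the Zic pair, and in neither case in C4. Over all protein-coding genes, 23.0% had an A6 peak within 100 kb, 19.8% a B8 peak, 6.07% a C4 peak and 1.14% an EB3 peak, and a SIM2 site (clone centres within 100 bp in at least 2 of the 3 clones, with no EB3 peak) lay near 13.4%. Of the 5 genes, 3 had such a site, but Zic2 and Zic5 share theirs, so 2 of the 1229 sites of the genome are involved. Both were sites of A6 and B8 without C4, as were 67.5% of all sites, so neither remains a site when A6 or B8 is left out. At a threshold of 8 times the input, which 860 of 2387 A6 peaks and 293 of 2137 B8 peaks pass, 0 of the 2 sites remain. No site of a single clone lay near the 5 genes.

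The SIM2 site of the Zic pair was the stronger of the 2. It lies between protein-coding genes, 41.2 kb upstream of the Zic2 start site and 31.5 kb downstream of the Zic5 start site, past the end of that gene. The nearest protein-coding start site, at 16932 bp, belongs to Gm5089 and not to either Zic gene. In A6 the normalized tag count was 21.9, rank 131 of 2387, with 14.39-fold over the input. In B8 it was 6.8, rank 290 of 2137, from 16 tags (9.15 to 26.0), with 6.81-fold over the input. By total tags the B8 rank was 482. Among the peaks that form SIM2 sites it ranked 128 of 1217 in A6 and 268 of 1190 in B8, above the medians of 13.3 and 5.4. Strong A6 peaks were nearly always shared: of those with at least this normalized tag count, 98.6% had a B8 peak within 100 bp and 87.2% a C4 peak, against 52.8% of all A6 peaks with a B8 peak. The Zic site is among the minority of these strong A6 peaks that the shorter C4 list of 631 peaks lacks. The lowest count of a listed C4 peak was 11 tags, and a peak below that limit in C4 would not be seen.

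NANOG and OCT4 both lay on the Zic SIM2 site. The NANOG peak had 63 tags (48.4 to 80.6), a normalized tag count of 24.8 and 29.04-fold over the input, and at rank 311 of 14815 it was the strongest of the 14 NANOG peaks near the 5 genes. The OCT4 peak had a normalized tag count of 6.3, rank 702 of 2532, with 6.41-fold over the input. The centres of the 4 peaks lay 10 to 39 bp apart, and all 4 intervals overlapped. No MED1 or MED12 peak lay there, and the nearest MED12 peak was 17714 bp away. The paper reports that most SIM2 peaks overlap a NANOG binding site. Within 100 bp of the 1229 SIM2 sites lay 1009 NANOG peaks and 568 OCT4 peaks. NANOG and OCT4 without Mediator were found at 23.4% of all SIM2 sites, and 6.81% of all NANOG peaks had a SIM2 site within 100 bp. At NANOG peaks on SIM2 sites the median normalized tag count was 12.4, against 6.2 over the whole NANOG list.

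The sequence of this site holds the midline element TACGTG at base 138 and CTTTGT at base 118, counted from the first base shown. TACGTG occurred in the 200 bp around the centre of 3.02% of A6 peaks, 2.57% of B8 peaks and 1.19% of NANOG peaks, and ACAAAG in 31.0% of A6 peaks. Neither the octamer nor an E-box was in the bases shown, which says no more than that these letters are not in this window. The 200 bp window of the A6 peak reaches past the bases shown and does hold an E-box. A match is a description of the sequence and not evidence of contact.

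The SIM2 site of Otx2 was weaker and stood apart from the peaks of the other factors. It lies between protein-coding genes, 2.4 kb beyond the 3′ end of the gene body and 12.4 to 12.5 kb downstream of the outermost Otx2 start site. The nearest start site, of a shorter Otx2 transcript, is at 6738 bp. In A6 the normalized tag count was 10.7, rank 1265 of 2387, with 7.06-fold over the input. In B8 it was 4.8, rank 880 of 2137 (1187 by total tags), from 12 tags (6.2 to 21.0), with 5.11-fold over the input. Among site-forming peaks it ranked 876 of 1217 in A6 and 677 of 1190 in B8, below the median in both clones. The A6 and B8 peak centres were 43 bp apart and the intervals overlapped by 114 bp. The paper links this site to the Otx2 promoter through published chromatin contacts of RNA polymerase II and lists Otx2 as a putative SIM2 target. Its mRNA-seq gives Otx2 a significant negative log fold change in that list. Neither the contacts nor the mRNA was examined here.

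No NANOG, OCT4, MED1 or MED12 peak lay within 100 bp of the Otx2 site, which was true of 16.6% of all SIM2 sites. A NANOG peak (chr14:49274232-49274398) ended 372 bp from the A6 peak, with its centre 553 bp from the centre of the site. It had a normalized tag count of 10.1 and 26 tags (17.0 to 38.1), in the upper part of its list at rank 3092 of 14815. Sites with a NANOG centre within 600 bp but none within 100 bp made up 2.77% of the 1229. The centre of the MED12 peak was 1242 bp away, and the nearest OCT4 peak 343804 bp away.

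The Otx2 SIM2 site also differed in base composition. Its 200 bases, the A6 and B8 intervals joined, were 65.0% G or C with 7 CpG. The 200 bp windows set beside it are centred on single peaks, so they do not cover exactly the same bases. Their median was 47.5% for A6 peaks and 46.0% for B8 peaks, and 0.377% of A6 windows reached 65.0%. In the EB3 control list, whose 81 peaks are not of SIM2-FLAG, the median was 51.5% and 9.88% of windows reached 65.0%. No EB3 peak was listed near Otx2. The Zic SIM2 site was 37.3% G or C with 1 CpG, below the A6 median. Of the motifs searched, the Otx2 site held 3 E-boxes and no other.

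**Figure D2:**
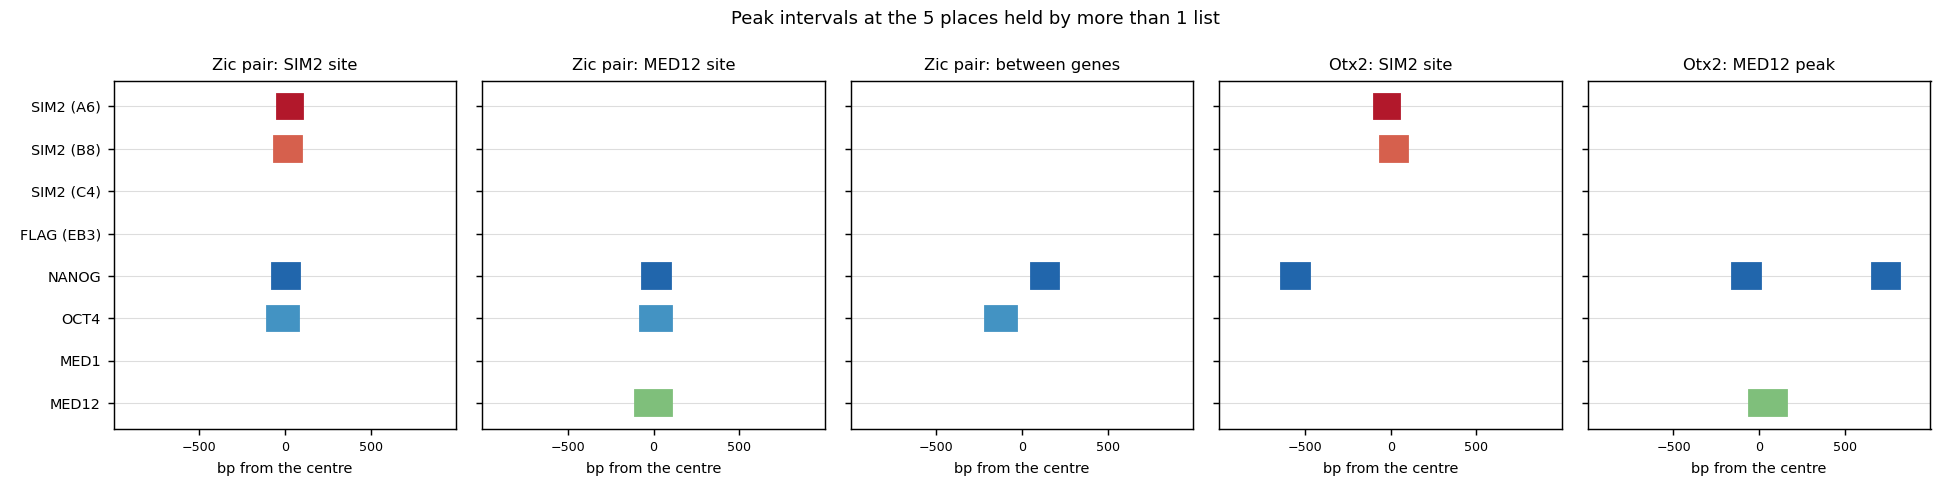
Peak intervals at the 5 places held by more than 1 list, with the distance from the centre of the place in bp on the horizontal axis and 1 row per list. SIM2, NANOG and OCT4 overlap at the Zic SIM2 site, whereas at the Otx2 SIM2 site the 2 clone peaks overlap each other and the NANOG peak lies 372 bp from the A6 peak.

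NANOG peaks were the common feature of all 5 genes. Over all protein-coding genes, 67.6% had a NANOG peak within 100 kb, so a peak near each of 5 genes is not far from the background. The number of peaks separated the genes. Otx2 had 9, a number reached by 0.93% of protein-coding genes (208 genes). Of the naive genes listed below, Klf5 had 14 and Nanog and Tbx3 had 9 each, and the highest among the other formative genes was 8. Zic2 and Zic5 had 3, which 24.8% of genes reached, and Fgf5 and Pou3f1 had 1, the median over all genes. The windows were 203.0 to 223.0 kb long, near the median of 215.0 kb over all genes.

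**Figure D3:**
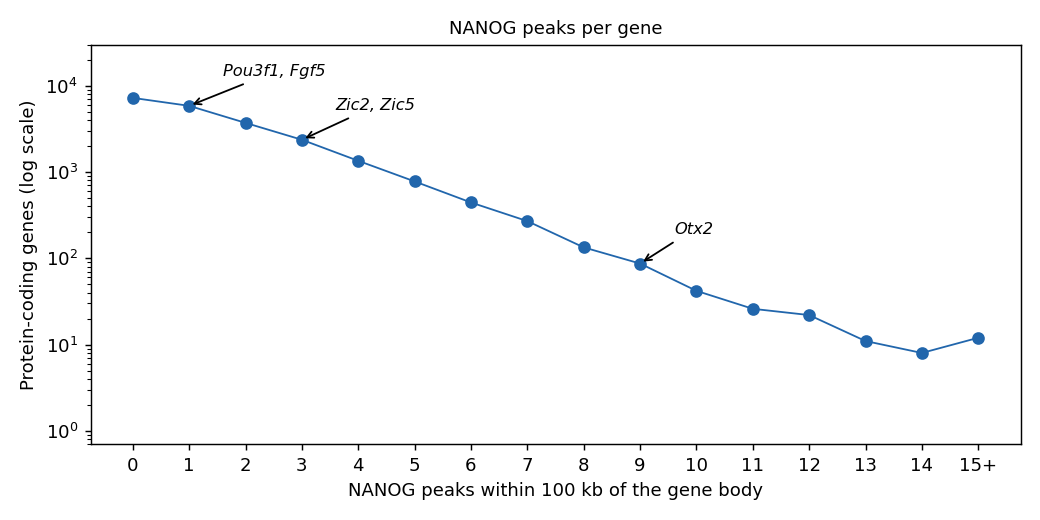
Number of protein-coding genes (vertical axis, log scale) by number of NANOG peaks within 100 kb of the gene body, as 1 point per number, with 15 or more pooled in the last point. Otx2 stands in the tail with 9 peaks, Zic2 and Zic5 have 3, and Pou3f1 and Fgf5 have 1.

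The 14 NANOG peaks were of above-average strength. Their median was 29.0 tags against 15.0 over the list, 11 of the 14 exceeded the list's median, and 4 were in its top 10%. Near Otx2 the normalized tag count ran from 6.2 to 18.6 with a median of 10.1, from 11 to 54 tags. Near the Zic pair it ran from 11.6 to 24.8, from 33 to 63 tags. In the 200 bp around their centres, CATTGT was in 1 of the 14 peaks, CCATTA in 0 and TCAAGGTCA in 0. Over the NANOG list the shares were 21.7%, 11.6% and 2.47%.

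The strongest NANOG peak of Otx2 lay at an internal start site of the gene. This peak (chr14:49282679-49282845) is in an intron of the longer Otx2 transcripts and ends 131 bp before the first base of Otx2-003, a shorter protein-coding transcript, with its centre 215 bp upstream. It had a normalized tag count of 18.6, rank 779 of 14815, and 54 tags (40.6 to 70.5), rank 511, with 24.89-fold over the input. OCT4 was not listed there, although 89.8% of the 547 NANOG peaks with at least as many tags had an OCT4 peak within 100 bp. The sequence shown for it holds the octamer at base 159 and 3 copies of CTTTGT at bases 33, 53 and 89, all within the 200 bp around the peak centre. The octamer was found in 6.96% of NANOG peaks and ACAAAG in 33.6%. GGGGGTGG at base 285 lies outside the peak, next to the start site.

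6 further NANOG peaks lay 33.5 to 86.9 kb upstream of Otx2, with normalized tag counts of 6.2 to 17.8 and 11 to 41 tags. None had a peak of another list within 100 bp, and NANOG peaks without OCT4, MED12 or a SIM2 site were common over the whole list. The farthest of them, 86.8 kb from the gene body, was also the second strongest of the locus, with a normalized tag count of 17.8. Downstream of the gene, the only MED12 peak of the locus (chr14:49273518-49273734) overlapped the last NANOG peak (chr14:49273416-49273582) by 65 bp. It was near the floor of its list, with a normalized tag count of 2.7, 14 tags (7.65 to 23.5) and 4.27-fold over the input, rank 1050 of 1071 (869 by total tags). The NANOG peak under it had a normalized tag count of 7.7, 17 tags (9.9 to 27.2) and 7.84-fold over the input.

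OCT4 was absent from the list within 100 kb of Otx2. Among the 208 genes with at least 9 NANOG peaks, 10.6% had no OCT4 peak in the window. Over all protein-coding genes 21.8% had one. An OCT4 peak lay within 100 bp of 16.2% of all NANOG peaks, and of 3 of the 14 here, each of them at the Zic pair. Conversely, all 3 OCT4 peaks had a NANOG peak within 100 bp, as did 94.6% of the OCT4 list.

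A second place at the Zic pair held NANOG, OCT4 and MED12 without SIM2. It lies 58.9 kb upstream of Zic2, and its nearest protein-coding start site is again that of Gm5089, at 34646 bp from the MED12 centre. The NANOG peak had 41 tags (29.4 to 55.6), a normalized tag count of 13.2 and 18.9-fold over the input. The OCT4 peak had a normalized tag count of 4.4, rank 1710 of 2532 (927 by total tags), with 5.9-fold over the input. The MED12 peak had a normalized tag count of 4.7, rank 790 of 1071 (379 by total tags), from 19 tags (11.4 to 29.7), with 5.8-fold over the input. The 3 centres lay 5 to 17 bp apart, a close match in position. OCT4 and MED12 without a SIM2 site were found at 2.25% of NANOG peaks. MED12 lay within 100 bp of 6.15% of all NANOG peaks and of 2 of the 14 here, and both MED12 peaks had a NANOG partner, as did 85.0% of the MED12 list. The sequence holds the octamer at base 189, which 11.1% of OCT4 peaks and 5.51% of MED12 peaks have.

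The third place of the Zic pair lies between the divergent start sites, where an OCT4 peak (chr14:122866952-122867138) and a NANOG peak (chr14:122867217-122867383) were neighbours without overlap. They were separated by 78 bp, with centres 255 bp apart and 2.1 and 2.4 kb upstream of the Zic5 start site. The NANOG peak had 33 tags (22.7 to 46.3), a normalized tag count of 11.6 and 15.21-fold over the input. The OCT4 peak was weak, with a normalized tag count of 4.1, rank 1929 of 2532, and 4.21-fold over the input. At a distance of 50 bp these 2 peaks no longer count as coincident. The OCT4 interval holds ACAAAG once.

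Fgf5 had a single peak, of NANOG, in intron 1 of its 3-exon transcript, 1.7 kb downstream of the start site. It had 29 tags (19.4 to 41.6), a normalized tag count of 11.6, rank 2418 of 14815, and 13.37-fold over the input. The sequence holds TAATCC, the OTX core, at base 11, which 7.17% of NANOG peaks and 1 of the 14 here have. Pou3f1 also had a single NANOG peak, 9.0 kb upstream, and it was the weakest of the 14. It lay at chr4:124325773-124325939 with 10 tags (4.8 to 18.4), a normalized tag count of 4.6 and 4.61-fold over the input, rank 9986 of 14815 (12603 by total tags). Neither gene had a SIM2, OCT4 or Mediator peak in its window.

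**Figure D4:**
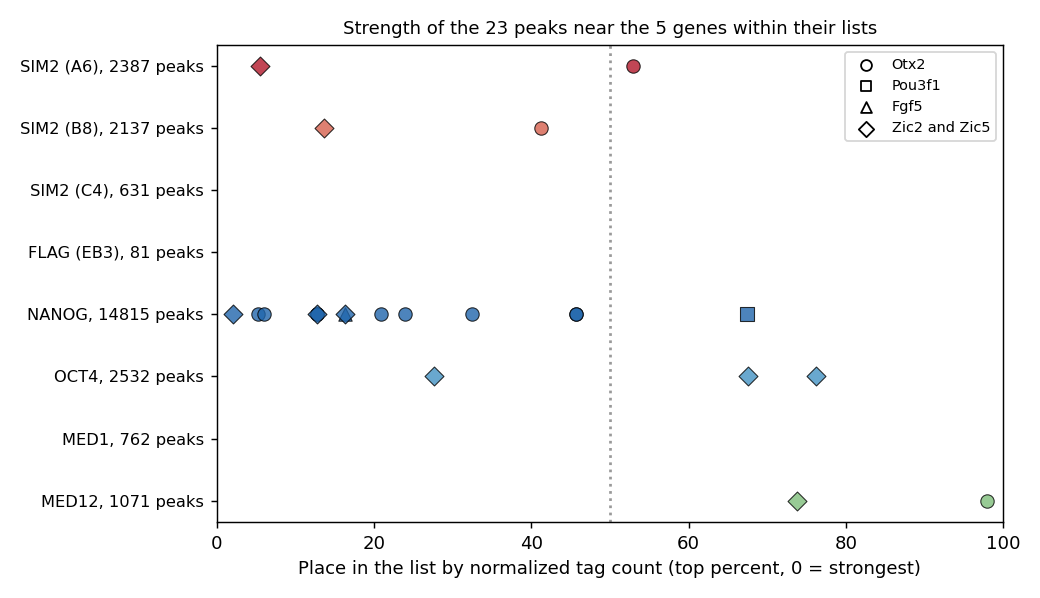
Place of each of the 23 peaks in its own list by normalized tag count, as a top percent on the horizontal axis (0 is the strongest peak), with 1 row per list and 1 symbol per locus. NANOG peaks crowd the strong side, with 13 of 14 left of the middle. Equal counts take the best rank of their group, and the NANOG peaks at 6.2 equal the list median. By total tags, 11 of the 14 exceeded the list median. The A6 and B8 peaks of the Zic pair are stronger than those of Otx2, and both MED12 peaks lie in the weaker part. By total tags the MED12 peak of the Zic pair is in the stronger part, at rank 379 of 1071.

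MED1 was listed near none of the 5 genes, against 7.98% of all protein-coding genes, and MED12 near 3, of which Zic2 and Zic5 share a peak, against 10.9%. The rule's edge fell in empty stretches for most of the genes. The nearest peak outside 100 kb was a NANOG peak at 104.4 kb for Otx2 (normalized tag count 5.4), an OCT4 peak at 114.5 kb for Zic5 (3.8), the same OCT4 peak at 133.1 kb for Zic2, and NANOG peaks at 160.0 kb for Pou3f1 (3.9) and 161.7 kb for Fgf5 (10.8). The farthest peak inside was at 86.8 kb for Otx2, 58.8 kb for Zic2, 40.2 kb for Zic5 and 9.0 kb for Pou3f1, and the Fgf5 peak lay within the gene.

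3 gene lists place these values. 13 other genes of the formative state (Dnmt3a, Dnmt3b, Lef1, Foxd3, Sox3, Sall2, Etv4, Etv5, Utf1, Tcf7l1, Tcf15, Grhl2 and Lin28b) had a median of 3.0 NANOG peaks, equal to the median of 3.0 of the 5 genes, and 6 had a SIM2 site, 7 an OCT4 peak, 3 a MED1 peak and 7 a MED12 peak. 12 genes of the naive state (Klf2, Klf4, Klf5, Esrrb, Nr5a2, Tfcp2l1, Tbx3, Prdm14, Zfp42, Nanog, Dppa3 and Tcl1) had a median of 5.5 NANOG peaks, and 7 had a SIM2 site, 11 an OCT4 peak, 8 a MED1 peak and 11 a MED12 peak. Every gene of both lists had a NANOG peak. SIM2 sites were thus counted near 3 of 5, 6 of 13 and 7 of 12 genes, whereas OCT4 was near 2 of 5, 7 of 13 and 11 of 12. These counts carry no test, and neighbours such as Nanog and Dppa3 can share peaks. Zic2 and Zic5 share all their peaks but count separately among the 5 genes, also in the median of 3.0. The OCT4 count of the 5 genes comes from this pair alone.

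Paralogs of the 5 genes gave a different picture. Of Otx1, Crx, Pou3f2, Pou3f3, Pou3f4, Fgf4, Zic1 and Zic4, 2 of 8 had any NANOG peak in the window: Fgf4 had 3 and Otx1 had 2. The other 6 had no peak of any list. Fgf4, an ES cell growth factor, also had a SIM2 site, an OCT4 peak and a MED12 peak.

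**Figure D5:**
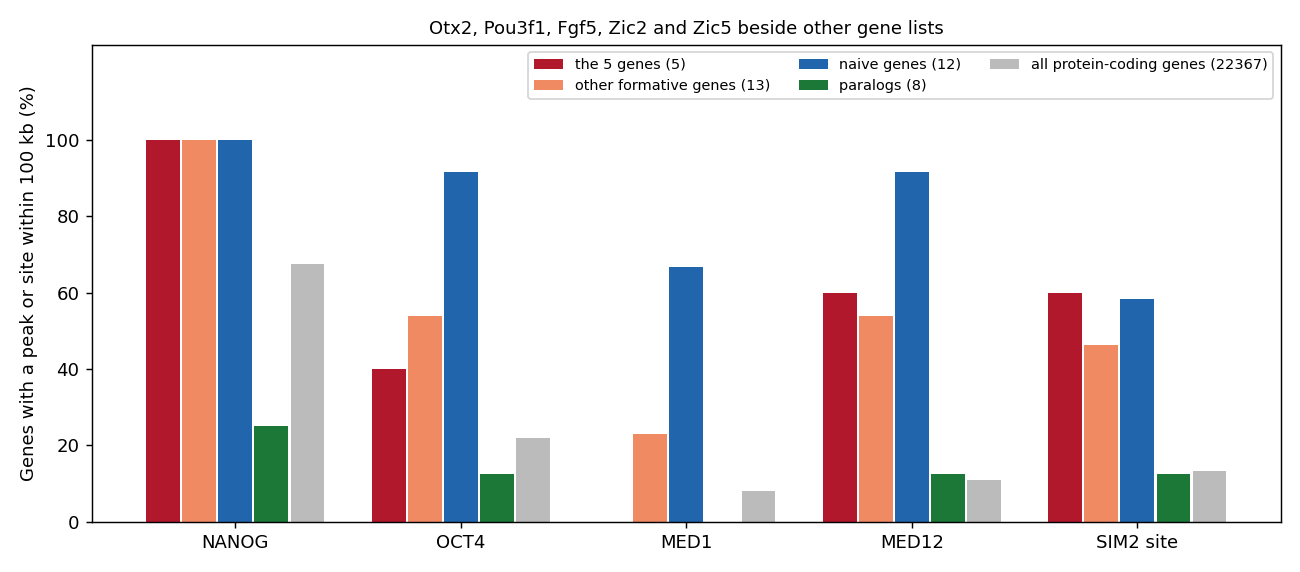
Share of genes with a peak or SIM2 site within 100 kb (vertical axis, percent) for the 5 genes, 13 other formative genes, 12 naive genes, 8 paralogs and all 22367 protein-coding genes. The 5 genes reach 60.0% for SIM2 sites and 40.0% for OCT4, against 58.3% and 91.7% for the naive genes. Zic2 and Zic5 share their peaks but count separately among the 5 genes.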

How the data were processed

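ChIP-seq peak lists of 8 mouse ES cell libraries were used. The authors aligned reads with BWA (mm9) and, after duplicate removal, ran HOMER with default parameters on each library against input. The normalized tag count, a signal, was scaled to library size by the authors. The deposited focus ratio is a fraction, and the score is that of the authors' peak caller. Total tags are counts in 5 deposited lists and not whole in the other 3. The deposited lists also give a fold over input (a ratio) with a p-value. NANOG and OCT4 lists of EB3 and SOX2 were not analysed here.

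Peaks within 100 kb of GENCODE vM1 gene bodies were taken. Coincidence meant at most 100 bp between intervals, as with windowBed. SIM2 sites were built from clone centres within 100 bp, in at least 2 clones, without an EB3 centre within 100 bp. Shares are over all protein-coding genes or peaks. No test was run, since peaks of 1 library are not replicates. Motifs were matched in 200 bp windows. Total tags carry exact 95% Poisson intervals.

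All OCT4, MED12 and SIM2 peaks near the genes were named, and of the NANOG peaks those with a partner, the strongest and the one nearest a start site of each gene. The genes and lists were chosen with earlier results of these data known, and the shares among strong A6 and NANOG peaks, among genes with many NANOG peaks and within 600 bp, and the base composition, were added after seeing the values. So was the NANOG peak 553 bp from the Otx2 SIM2 site named. 1 further gene planned for the comparison lists was left out of them and is not reported here. Python 3.11.15, numpy 2.4.6, pandas 2.3.3, scipy 1.17.1 and bedtools 2.31.1 were used, and the overlap steps were tested on simulated data.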

Additional observations from a re-analysis of the deposited data

How the results depend on the processing

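The counts near the 5 genes kept the same SIM2, Mediator and EB3 values in windows of 50 kb and 200 kb and around start sites, where NANOG ran from 11 to 20 peaks and OCT4 from 3 to 4. At least 8 times the input left 1 A6 peak, 10 NANOG peaks and 0 peaks of B8, OCT4 and MED12, hence 0 SIM2 sites and 0 coincidences of NANOG with OCT4, MED12 or SIM2. Over the whole lists the same cut left 860 of 2387 A6 peaks and 5712 of 14815 NANOG peaks. It left 293 of 2137 B8 peaks, 328 of 2532 OCT4 peaks and 139 of 1071 MED12 peaks. Counting only peaks whose nearest start site is that of 1 of the 5 genes left 1 peak each of A6, B8, OCT4 and MED12 and 1 SIM2 site, that of Otx2. Leaving out 1 clone gave 0 to 2 SIM2 sites: 0 without A6, 0 without B8 and 2 without C4. Within 1000 bp, 2 NANOG peaks had a SIM2 site and 2 SIM2 sites had NANOG. Within 50 bp the OCT4 and NANOG pair between the Zic genes was lost, leaving 2 of 3.

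The share of protein-coding genes with a peak moved with the window by construction. At 50 kb it was 14.7% for A6, 12.5% for B8, 3.8% for C4, 0.626% for EB3, 49.4% for NANOG, 13.8% for OCT4, 4.79% for MED1, 6.76% for MED12 and 8.37% for SIM2 sites. At 200 kb it was 36.7%, 32.8%, 10.2%, 2.24%, 85.5%, 35.5%, 13.5%, 18.6% and 22.5% in the same order. Around start sites it was 21.1%, 18.1%, 5.55%, 1.05%, 64.6%, 19.9%, 7.34%, 9.89% and 12.2%.

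Ranking by total tags, chosen after seeing the data, moved 6 of 23 ranks by over 1.5 times. No paired analysis was possible because each list is 1 library and no test compares groups. Gene bodies of another mm9 annotation were not run. Each NANOG, OCT4 and Mediator value rests on 1 library, the C4 list is shorter than those of A6 and B8, and a peak under the caller's threshold does not appear in any list.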
